A study of Arabidopsis thaliana with 16 samples.

Results

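The core circadian clock genes of Arabidopsis thaliana were followed across all arrays of a low light to high light experiment in whole rosettes. The 10 genes were chosen by name as the textbook core of the plant clock, by a rule that holds no measured value: CCA1, LHY, PRR9, PRR7, PRR5, TOC1, GI, ELF3, ELF4 and LUX. Each was measured by 1 of the 28403 probe sets analysed, a probe set being the group of short probes that reports on 1 transcript.

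The plant clock is a network of repressors that are expressed in turn over the day. CCA1 and LHY are Myb-like factors that peak around dawn and repress evening genes. The pseudo-response regulators follow in the order PRR9, PRR7, PRR5 and TOC1, and repress CCA1 and LHY. ELF3, ELF4 and LUX form the evening complex, which represses PRR9 among other genes, and GI is an evening-phased protein that works with ZTL-type F-box proteins in the turnover of TOC1 and PRR5. Light resets this network each day and is known to act on the transcription of CCA1, LHY, PRR9 and GI.

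Col-0 plants served as the wild type (WT). They were set beside knockouts labelled sap3 KO, in the gene of a zinc finger stress-associated protein, and cml49 KO, in that of a calmodulin-like protein. All plants first grew 3 weeks under 80 to 100 µmol of photons (per m² and s), followed by 10 days at 8 µmol. Low light (LL) groups were harvested there, and high light (HL) groups after a transfer to 800 µmol, whose length is 60 min in the sample titles and 10 min in the treatment protocol. WT and sap3 had 3 arrays per light level, each from a sample of 15 plants, and WT and cml49 each had 1 pooled array of 45 plants per light level. The sources used here do not say how the knockouts were made or how many lines of each were used.

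Time of day matters for these genes, and only 1 clock time was sampled. The growth light ran for 10 h from 8 to 18 h. The harvest is placed at 3 pm, which is 7 h after lights on, and also at the middle of the light period, which would be 13 h, or 5 h after lights on. LL and HL samples are described as taken at the same time, but the harvest time of each replicate is not given in the labels, and the values below carry no information on rhythm. Values are log2 signals normalised by the authors with the RMA method (background correction, quantile normalisation and summary over probes), so a difference of 1 is a doubling of signal. Differences are taken between arrays within a gene, since probes differ in brightness. Levels of leaf, root and flower marker genes serve only as a rough guide to high and low signals. In whole rosettes, a change in the share of a cell type and a change in RNA per cell cannot be told apart. The p-values rest on the spread among the labelled samples.

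Several labels went against the data. A light score, which places an array between the pools in LL (0) and in HL (1) by its median over 244 strongly light-dependent probe sets with all clock genes left out, was 0.03 to 0.06 in 5 LL arrays and 0.91 to 1.00 in 4 HL arrays. It was 0.07 in WT HL replicate 2, 0.95 in sap3 LL replicate 2 and 0.02 in sap3 HL replicate 3, opposite to their labels. Results are therefore given for all 12 single-replicate arrays as labelled and for the 9 arrays without these 3. Because the 3 were left out for their light state, the 9 arrays give no independent evidence that light had an effect. SAP3 itself read 4.85, 4.84 and 5.14 in WT LL and 6.14, 3.94 and 6.48 in WT HL. In sap3 it read 4.21, 6.98 and 4.05 in LL and 5.06, 5.28 and 3.74 in HL. Its level thus did not separate the knockout from WT on every array. Without the 3 arrays above, SAP3 was lower in sap3 than in WT at each light level without overlap, though limma did not call it. WT HL replicate 2 read below the kept sap3 LL arrays, and sap3 LL replicate 2 above the kept WT HL arrays. The CML49 probe set read 2.77 and 3.30 in the pools labelled WT and 3.97 and 4.23 in the pools labelled cml49. It read 4.14 to 4.54 in the 12 single-replicate arrays, so the lowest values were those of the pools labelled WT. The authors' deposited group means combine the pools labelled cml49 with WT arrays and those labelled WT with sap3 arrays, so the genotype of the pools is not settled. Leaf markers were high in every array (list medians 10.8 to 11.6), root markers were low (1.72 to 2.98), as were flower markers (1.63 to 2.33), with single values of 1.16 to 3.99 over both lists. The part of these label conflicts in the genotype results was not tested.

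The 10 genes lie on chromosomes 1, 2, 3 and 5, and each probe set overlaps the annotated gene of a single locus with no cross-hybridisation marked. Positions are those of the authors' annotation, which names TAIR10 for some transcripts only and gives no build for the others. CCA1 (AT2G46830) lies at chr2:19245672-19248914 on the plus strand and PRR9 (AT2G46790) at chr2:19232649-19235087 on the same strand, 10.58 kb apart with 3 RefSeq genes between them. PRR7 (AT5G02810) lies at chr5:637897-641977 on the minus strand, 6.73 kb from RVE4, a Myb-like clock activator, with 4 RefSeq genes between. LHY (AT1G01060) is at chr1:33379-37871, minus strand, and GI (AT1G22770) at chr1:8061844-8067716, plus strand. ELF3 (AT2G25930) is at chr2:11059035-11063324, plus strand, ELF4 (AT2G40080) at chr2:16734294-16734912, minus strand, and LUX (AT3G46640) at chr3:17183070-17185218, plus strand. PRR5 (AT5G24470) is at chr5:8355951-8358873, minus strand, and TOC1 (AT5G61380) at chr5:24675064-24678550, plus strand.

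The dawn gene CCA1 and the early-day repressor PRR9 were far higher in the kept HL arrays than in the LL arrays, whereas the evening genes TOC1, ELF3 and ELF4 were lower in WT and PRR7, PRR5 and GI stayed within narrow ranges across the single arrays. CCA1 read 4.44, 4.60 and 4.79 in the WT LL arrays and 8.52, 4.42 and 8.67 in the WT HL arrays. It read 4.85, 8.97 and 5.66 in sap3 LL and 8.53, 8.55 and 5.89 in sap3 HL. The low value among the WT HL arrays and the high value among the sap3 LL arrays belong to replicate 2 in both cases, and the low value in sap3 HL to replicate 3, the same arrays whose light score opposed the label. Without them the WT groups were 4.61 ± 0.18 (SD, n = 3) in LL and 8.60 ± 0.11 (SD, n = 2) in HL, with no overlap. CCA1 rose in WT by 3.99 on the log2 scale (SE 0.22, 95% interval 3.49 to 4.48, limma adjusted p = 4.83e-06), a 15.8-fold higher signal. In sap3 it rose by 3.29 (SE 0.24, limma adjusted p = 3.33e-05), 9.75-fold. With all 12 arrays the differences were 2.59 in WT (SE 1.23, limma adjusted p = 0.713) and 1.16 in sap3 (limma adjusted p = 0.994), and neither passed the threshold of 0.05.

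LHY, the closest relative of CCA1, did not share this range. Its values were 3.72, 4.20 and 3.74 in WT LL, 4.33, 4.20 and 4.49 in WT HL, 3.83, 4.55 and 4.14 in sap3 LL, and 4.29, 4.36 and 4.17 in sap3 HL. Its highest reading, in sap3 LL replicate 2, and its lowest, in WT LL replicate 1, were under 1 log2 unit apart, on arrays whose medians over all probe sets were 4.37 to 4.41. The values below 3.99 lie within the range of the root and flower markers, so the size of LHY differences is uncertain. The WT groups did not overlap in the 9 arrays, with a difference of 0.52 (SE 0.18, 95% interval 0.12 to 0.93) that did not pass (limma adjusted p = 0.122). It passed without WT LL replicate 2 (limma adjusted p = 0.0448). In sap3 the difference was 0.34 (limma adjusted p = 0.408). The 12-array differences were 0.45 in WT and 0.10 in sap3 (limma adjusted p = 0.713 and 0.994).

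**Figure D1:**
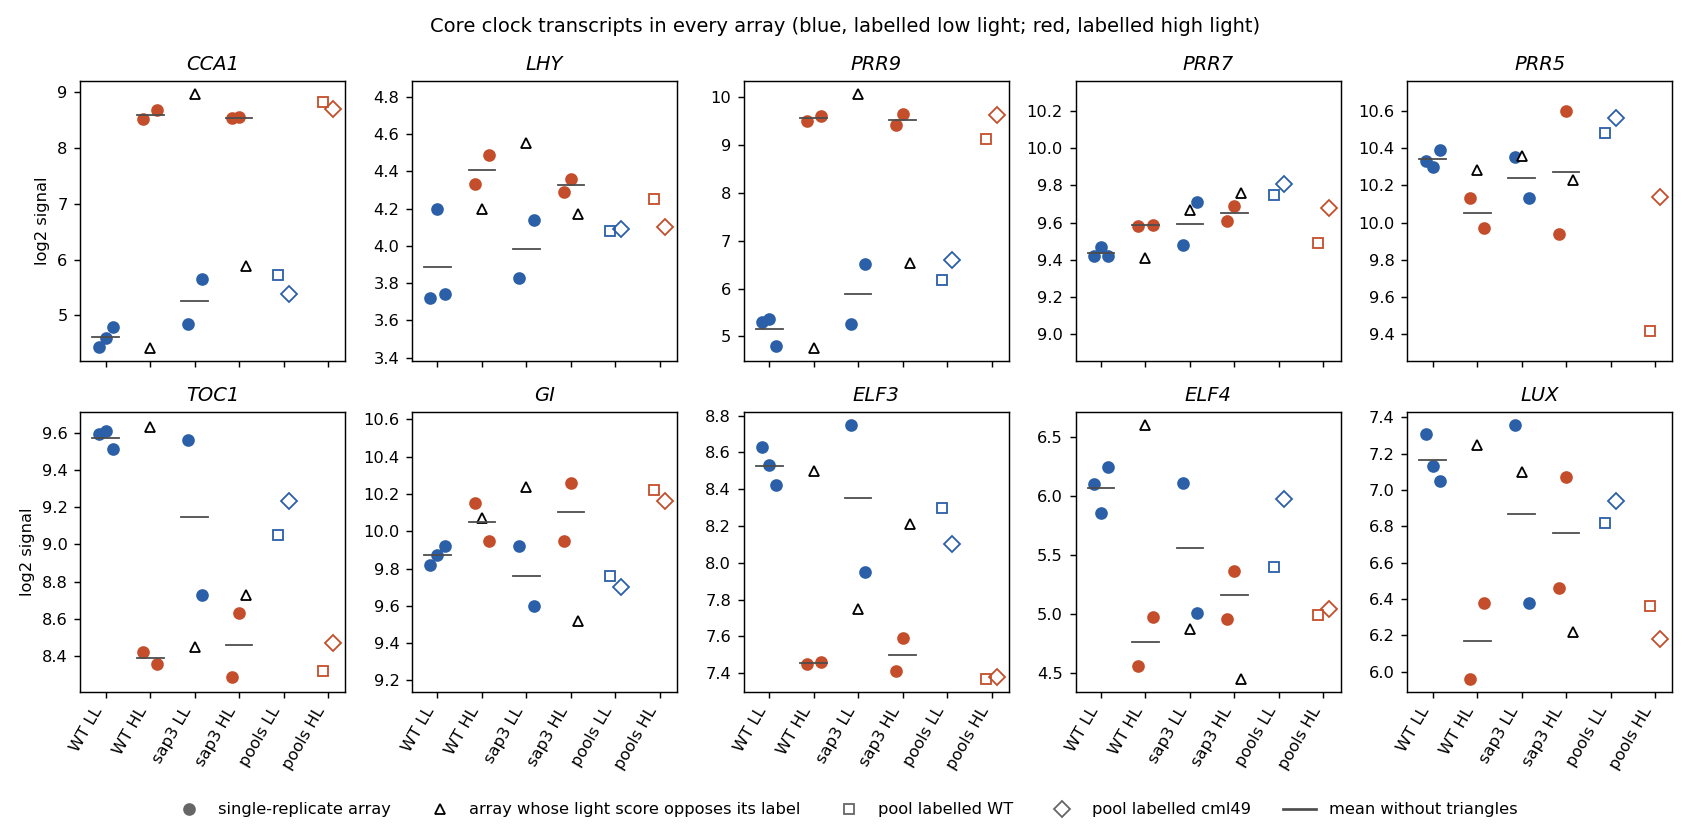
Log2 signal of the 10 core clock genes in each of the 16 arrays, 1 panel per gene with its own vertical range, by group as labelled (WT LL, WT HL, sap3 LL, sap3 HL and the pools). Each point is an array, and the 3 arrays whose light score opposed the label have a marker of their own; CCA1 and PRR9 fall into a low set up to 6.59 and a high set from 8.52, and for these 2 genes the 3 arrays lie away from the others of their label.

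PRR9, the first pseudo-response regulator of the day, followed CCA1. It read 5.30, 5.37 and 4.80 in WT LL, 9.51, 4.76 and 9.61 in WT HL, 5.26, 10.07 and 6.52 in sap3 LL, and 9.41, 9.64 and 6.53 in sap3 HL. The same replicates stood out as for CCA1, and sap3 LL replicate 2 held the highest PRR9 value of all arrays. Without the 3 arrays PRR9 rose in WT by 4.40 (SE 0.32, limma adjusted p = 2.31e-05), 21.2-fold, and in sap3 by 3.64 (SE 0.35, limma adjusted p = 0.000176), 12.4-fold. The sap3 difference was 3.01 without sap3 LL replicate 1 and 4.27 without sap3 LL replicate 3. With 12 arrays the WT difference was 2.80 (SE 1.40, limma adjusted p = 0.713) and the sap3 difference 1.24 (limma adjusted p = 0.994). The calls on CCA1 and PRR9 in the 9 arrays held whichever single array was left out, with limma adjusted p at most 0.000831 for CCA1 and 0.00261 for PRR9.

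The later members of the same family differed little. PRR7 read 9.42, 9.47 and 9.42 in WT LL, 9.58, 9.41 and 9.59 in WT HL, 9.48, 9.67 and 9.71 in sap3 LL, and 9.61, 9.69 and 9.76 in sap3 HL. All 12 values lay within 0.4 log2 units, and the 9-array difference was 0.15 in WT (95% interval -0.15 to 0.45, limma adjusted p = 0.623) and 0.06 in sap3 (limma adjusted p = 0.897). PRR5 read 10.33, 10.30 and 10.39 in WT LL, 10.13, 10.28 and 9.97 in WT HL, 10.35, 10.36 and 10.13 in sap3 LL, and 9.94, 10.60 and 10.23 in sap3 HL. The WT HL arrays lay slightly below the WT LL arrays and the sap3 groups overlapped. The PRR5 difference was -0.29 in WT (95% interval -0.72 to 0.14, limma adjusted p = 0.468) and 0.03 in sap3 (limma adjusted p = 0.964) in the 9 arrays. With 12 arrays the WT and sap3 differences were 0.09 and 0.07 for PRR7 and -0.21 and -0.02 for PRR5, and neither gene was called.

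TOC1, the evening member of the family, read 9.59, 9.61 and 9.51 in WT LL, 8.42, 9.63 and 8.36 in WT HL, 9.56, 8.45 and 8.73 in sap3 LL, and 8.29, 8.63 and 8.73 in sap3 HL. It was low where CCA1 was high, and sap3 LL replicate 3, at 8.73, lay close to the HL arrays. TOC1 fell in WT by 1.18 (SE 0.22, limma adjusted p = 0.00813), from 9.57 ± 0.05 (SD, n = 3) to 8.39 ± 0.04 (SD, n = 2), in the 9 arrays. The call was lost without WT HL replicate 1 or replicate 3 (limma adjusted p = 0.0599 and 0.0745), which leaves 1 array in that group, so that the lone array is assumed to vary like the others. In sap3 the TOC1 difference was -0.69 (limma adjusted p = 0.142), and it depended on which sap3 LL array was kept. It was -0.27 without replicate 1 and -1.10 without replicate 3, each of which leaves 1 array in sap3 LL. The 12-array differences were -0.77 in WT and -0.36 in sap3 (limma adjusted p = 0.713 and 0.994).

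The evening complex genes read lower in the kept WT HL arrays than in WT LL. ELF3, the scaffold of the complex, read 8.63, 8.53 and 8.42 in WT LL, 7.45, 8.50 and 7.46 in WT HL, 8.75, 7.75 and 7.95 in sap3 LL, and 7.41, 7.59 and 8.21 in sap3 HL. In the 9 arrays no HL value reached an LL value in either genotype. ELF3 fell in WT by 1.07 (SE 0.21, limma adjusted p = 0.0109), a call lost without WT HL replicate 1 or replicate 3 (limma adjusted p = 0.0819 and 0.0808). In sap3 the difference was -0.85 (limma adjusted p = 0.0573). It was -0.45 without sap3 LL replicate 1 and -1.25 without sap3 LL replicate 3, each of which leaves 1 array in sap3 LL. ELF3 passed in sap3 under a mean-dependent prior, quantile normalisation or removal of dim probe sets (limma adjusted p = 0.0144, 0.0493 and 0.025). The 12-array differences were -0.72 in WT and -0.41 in sap3 (limma adjusted p = 0.713 and 0.994).

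ELF4, a small protein that binds ELF3, read 6.10, 5.85 and 6.24 in WT LL, 4.56, 6.60 and 4.97 in WT HL, 6.11, 4.87 and 5.01 in sap3 LL, and 4.96, 5.36 and 4.45 in sap3 HL. The WT groups were apart once replicate 2 of WT HL, which held the highest ELF4 value, was left out, and the sap3 groups overlapped. ELF4 fell in WT by 1.30 (SE 0.29, limma adjusted p = 0.0211), and 4 of the 5 WT arrays each ended this call when left out (limma adjusted p = 0.055 to 0.176). The sap3 difference was -0.40 (95% interval -1.12 to 0.32, limma adjusted p = 0.571). LUX, the DNA-binding member of the complex, read 7.31, 7.13 and 7.05 in WT LL, 5.96, 7.25 and 6.38 in WT HL, 7.36, 7.10 and 6.38 in sap3 LL, and 6.46, 7.07 and 6.22 in sap3 HL. Its WT groups did not overlap in the 9 arrays and its sap3 groups did. The LUX difference was -0.99 in WT (SE 0.29, limma adjusted p = 0.0604) and -0.11 in sap3 (limma adjusted p = 0.906). In WT it passed under a mean-dependent prior, array weights or removal of dim probe sets (limma adjusted p = 0.0208, 0.0296 and 0.0292). With 12 arrays ELF4 differed by -0.69 in WT and -0.41 in sap3 (limma adjusted p = 0.724 and 0.994) and LUX by -0.63 and -0.36 (limma adjusted p = 0.713 and 0.994).

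GI, which acts with F-box proteins in the evening, read 9.82, 9.87 and 9.92 in WT LL, 10.15, 10.07 and 9.95 in WT HL, 9.92, 10.24 and 9.60 in sap3 LL, and 9.95, 10.26 and 9.52 in sap3 HL. Values at or above 9.95 came from arrays labelled HL and from sap3 LL replicate 2, and the lowest from replicate 3 of both sap3 groups. Among the former was WT HL replicate 2 at 10.07, whose light score was 0.07. It read above the kept LL arrays, which reached 9.92. The 9-array difference was 0.18 in WT (95% interval -0.18 to 0.54, limma adjusted p = 0.615) and 0.35 in sap3 (95% interval -0.05 to 0.74, limma adjusted p = 0.331), so an increase of up to 0.74 was within the interval. The 12-array differences were 0.19 and -0.01, neither called.

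In the 9 arrays limma called 5 of the 10 core genes in WT at an adjusted p under 0.05, 2 higher (CCA1 and PRR9) and 3 lower (TOC1, ELF3 and ELF4). Over all probe sets 9.13% were called, 4.99% higher and 4.14% lower. In sap3 it called 2 of 10, CCA1 and PRR9, both higher, beside 7.57% of all probe sets, 4.09% higher and 3.47% lower. The median size of the difference over the 10 genes was 1.03 in WT and 0.37 in sap3, against 0.20 and 0.21 over all probe sets. LL and HL values did not overlap for 10 of 10 genes in WT, where 38.6% of all probe sets were without overlap, and for 6 of 10 in sap3, where 45.5% were. In the 12 arrays as labelled limma called 0 of 10 in either genotype and 0% of all probe sets, while 1751 probe sets in WT, 3 of them core genes, and 891 in sap3, 0 of them core genes, had an unadjusted p under 0.05. There the groups did not overlap for 2 of 10 genes in WT (13% of all probe sets) and 0 of 10 in sap3 (6.64%).

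**Figure D2:**
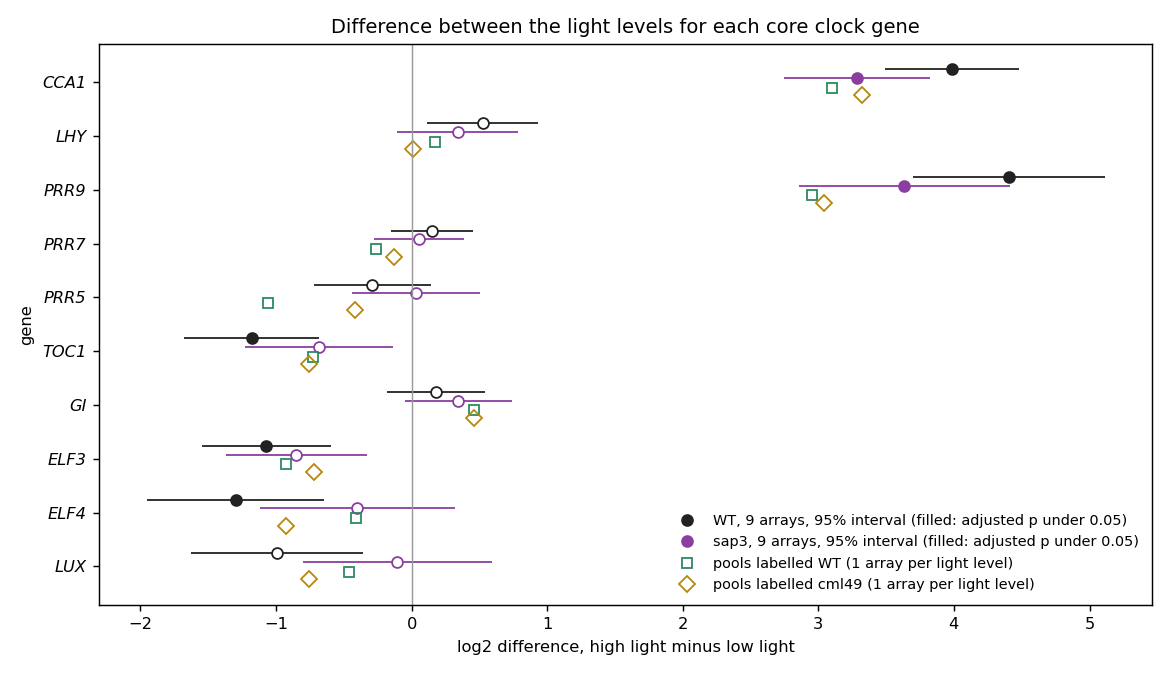
Log2 difference, high light minus low light, of each core clock gene in WT and in sap3 for the 9 arrays, with 95% limma intervals as bars and filled points for an adjusted p under 0.05, and in the 2 pool pairs as points without an error. CCA1 and PRR9 lie between 2.95 and 4.40 in all 4 comparisons, and the intervals of PRR7, PRR5 and GI include 0 in both genotypes.

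Fewer core genes passed the light test in sap3 than in WT, but the difference in light response between genotypes was not established by its own test. In the 9 arrays the interaction (the sap3 light difference minus the WT one) was -0.70 for CCA1 (95% interval -1.43 to 0.03) and -0.77 for PRR9 (95% interval -1.82 to 0.28). It was 0.90 for ELF4 (95% interval -0.07 to 1.87), 0.89 for LUX (95% interval -0.06 to 1.83) and 0.50 for TOC1 (95% interval -0.24 to 1.23). limma gave an adjusted p of 1 for each, and it called 0 of 10 core genes and 0% of all probe sets, with 0 core genes among the 1192 probe sets at an unadjusted p under 0.05. Each of these 5 intervals includes a difference of more than 1 log2 unit, so equal responses were not shown either. In the 12 arrays limma called 0 of 10 core genes and 0% of all probe sets in the interaction.

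Within a light level, the 9 arrays gave no core gene called between sap3 and WT, with 0% of all probe sets called in LL and 0.00352%, 1 probe set, in HL. At an unadjusted p under 0.05 there were 1706 probe sets in LL, 2 of them core genes, and 1272 in HL, 0 of them core genes. The LL differences were 0.65 for CCA1 (95% interval 0.15 to 1.14, limma adjusted p = 0.722), 0.73 for PRR9 (95% interval 0.03 to 1.44, limma adjusted p = 0.813), -0.43 for TOC1 (limma adjusted p = 0.871) and -0.50 for ELF4 (limma adjusted p = 0.88). The other 6 genes differed by -0.29 to 0.16. In HL, LUX differed by 0.60 (95% interval -0.10 to 1.29) and ELF4 by 0.40 (95% interval -0.32 to 1.11), and the other 8 by -0.09 to 0.22, all with a limma adjusted p of 0.996. sap3 and WT values did not overlap for 2 of 10 genes in LL (19.6% of all probe sets) and for 2 of 10 in HL (32.6%). The LL comparison uses the same WT LL arrays as the WT light comparison. In the 12 arrays limma called 0 core genes and 0% of all probe sets in either light level, with 1283 and 812 probe sets at an unadjusted p under 0.05 in LL and HL. There the genotypes did not overlap for 2 of 10 genes in LL (9.98% of all probe sets) and 1 of 10 in HL (6.96%).

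The LL differences between genotypes were carried by 1 array. sap3 LL replicate 3 read 5.66 for CCA1 and 6.52 for PRR9, above the other 4 LL arrays kept, which reached 4.85 and 5.37. It read 8.73 for TOC1, 5.01 for ELF4 and 6.38 for LUX, below the lowest of those arrays. In all, 5 of 10 core genes lay at least 0.5 outside the range of the other kept LL arrays in this array, 2 above and 3 below, while 2.89% of all probe sets did. The other 8 kept arrays had 0 core genes outside the range of their light label by that margin, except sap3 HL replicate 2 with 1, LUX at 7.07 (2.95% of all probe sets in that array). Of all probe sets, 1.25%, 1.37% and 1.46% lay outside in WT LL replicates 1, 2 and 3, 1.46% and 1.61% in WT HL replicates 1 and 3, 1.57% in sap3 LL replicate 1 and 2.74% in sap3 HL replicate 1. The remaining sap3 LL array, replicate 1, read 4.85 for CCA1, 5.26 for PRR9, 9.56 for TOC1, 6.11 for ELF4 and 7.36 for LUX, within 0.5 of the range of the WT LL arrays for all 5.

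The harvest time of this array relative to the others is not given in the labels. The light score of sap3 LL replicate 3 was within 0.03 to 0.06, so the shift of its clock genes stood beside a low-light reading over the other light-dependent probe sets. In sap3 HL replicate 3, 1 of the arrays whose light score opposed the label, CCA1 and PRR9 were intermediate as well. It read 5.89 for CCA1, 6.53 for PRR9, 8.73 for TOC1, 8.21 for ELF3, 4.45 for ELF4 and 6.22 for LUX. Only ELF4 lay at least 0.5 outside the range of the 5 kept LL arrays there (0.944% of all probe sets), because that range already includes sap3 LL replicate 3. The other arrays shown apart had 0 core genes outside the range opposite to their label: WT HL replicate 2 against the LL arrays (1.08% of all probe sets) and sap3 LL replicate 2 against the HL arrays (2.33%). For 8 of 10 core genes WT HL replicate 2 lay nearer the LL mean, and for 8 of 10 sap3 LL replicate 2 lay nearer the HL mean. sap3 HL replicate 3 was nearer the LL mean for 4 genes and nearer the HL mean for 6. These counts were made after the values had been seen. The counts by nearer mean cover the core genes only, with no share over all probe sets beside them. For LHY, PRR7, PRR5 and GI the LL and HL means were less than 0.5 apart, so nearness to either says little. Some values also lay beyond both means, such as ELF4 in sap3 HL replicate 3.

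**Figure D3:**
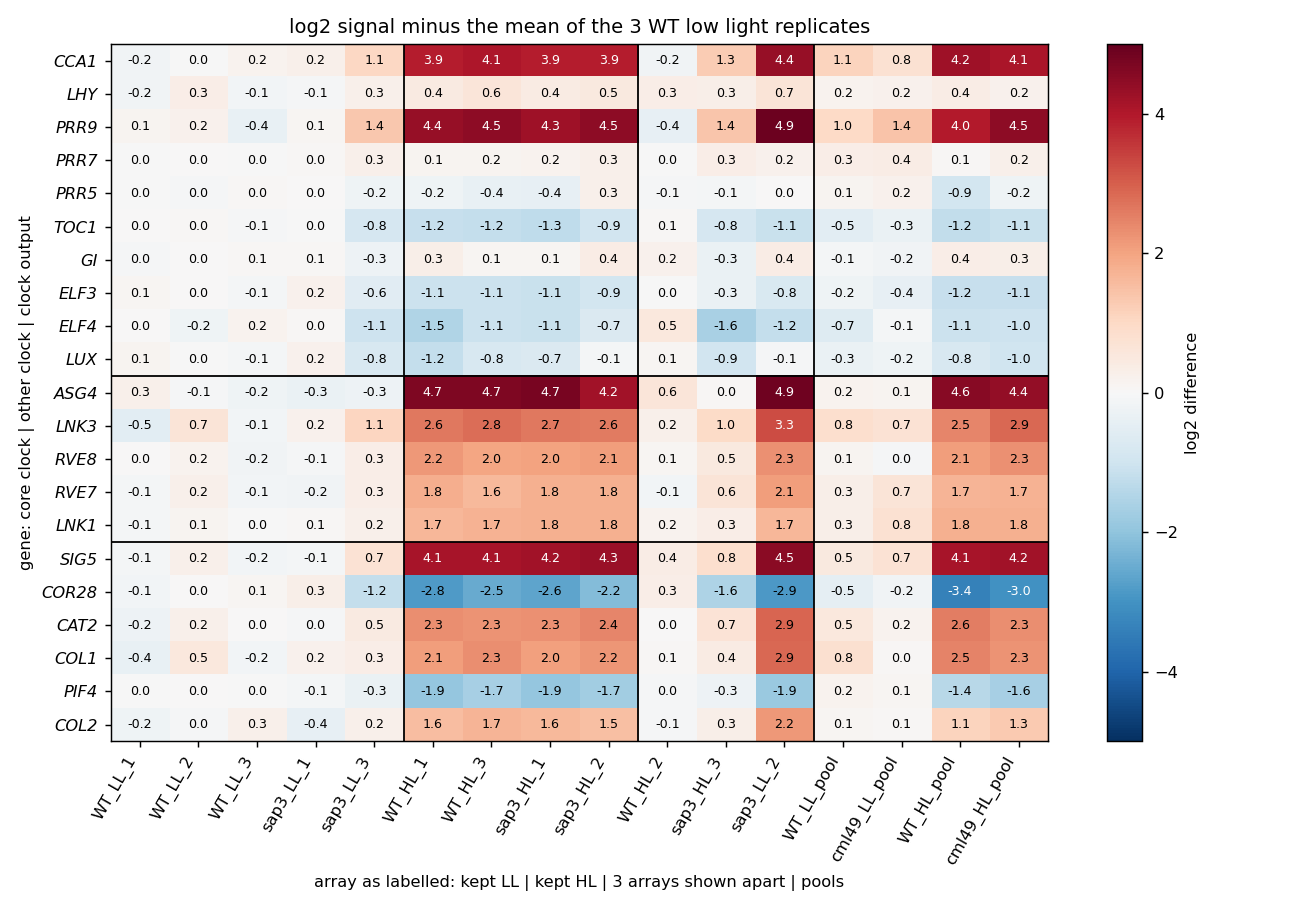
Log2 signal of the core clock genes and of the other clock and output genes called with light in both genotypes and named here, in the 16 arrays, each gene minus its mean over the 3 WT LL replicates, with arrays ordered as kept LL, kept HL, the 3 arrays shown apart and the pools. CCA1 and PRR9 are high in the HL arrays and in sap3 LL replicate 2, low in WT HL replicate 2, and intermediate in replicate 3 of sap3 LL and sap3 HL, at 5.66 and 5.89 for CCA1.

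The LL pools were intermediate too. CCA1 read 5.73 in the pool labelled WT and 5.38 in the pool labelled cml49, and PRR9 read 6.17 and 6.59. Each value was at least 0.5 above all 3 WT LL replicates, while 3.45% and 4.09% of all probe sets were outside that range. The 5 kept LL arrays reached 5.66 for CCA1 and 6.52 for PRR9, and no pool value exceeded these by 0.5. In the HL pools CCA1 read 8.83 and 8.70 and PRR9 9.12 and 9.63. Against the 4 kept HL arrays, the pool labelled WT had 1 core gene at least 0.5 outside, PRR5 at 9.42 (2.08% of all probe sets). The pool labelled cml49 had 0 (0.669%). The HL minus LL difference was 3.10 and 3.32 for CCA1 and 2.95 and 3.04 for PRR9 in the pools labelled WT and cml49. For TOC1 it was -0.73 and -0.76, for ELF3 -0.93 and -0.72, for ELF4 -0.41 and -0.93, and for LUX -0.46 and -0.76. GI was higher by 0.46 in both pairs, LHY by 0.17 and 0.01, while PRR7 differed by -0.26 and -0.13 and PRR5 by -1.06 and -0.42. With 1 array per group the pools allow no test. CCA1 and PRR9 were the 2 of 10 core genes past a size of 1 in both pairs, both higher, a size reached by 3.97% of all probe sets, 2.28% higher and 1.69% lower. Between the pools labelled cml49 and WT, 0 of 10 core genes differed by more than 1 while lying outside the WT arrays (1.54% of all probe sets). In HL the WT arrays included WT HL replicate 2, so their range was wide for light-dependent genes, which limits that share. For the core genes size alone decided, the largest differences being PRR5 in HL (0.72) and ELF4 in LL (0.57).

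Other genes of the clock network gave a mixed picture. Of 28 such genes, 7 rose and 3 fell in WT and 6 rose and 0 fell in sap3 in the 9 arrays at a limma adjusted p under 0.05. Of all probe sets, 4.99% rose and 4.14% fell in WT, and 4.09% rose and 3.47% fell in sap3. The 5 of these 28 genes called in both genotypes were all higher in HL. They were the Myb-like genes ASG4 (RVE3), RVE8 and RVE7, close relatives of CCA1 and LHY, and LNK1 and LNK3, whose proteins bind RVE8-type factors in the activation of evening genes. ASG4 read 2.05, 1.73 and 1.57 in WT LL and 6.45 and 6.45 in the kept WT HL arrays. It rose in both genotypes, with measured differences of 4.67 in WT (limma adjusted p = 1.63e-06) and 4.78 in sap3 (limma adjusted p = 2.72e-06). Its LL signals lay at the level of the root and flower markers, so these sizes are not exact. RVE8 rose by 2.07 and 1.91, RVE7 by 1.72 and 1.71, LNK1 by 1.71 and 1.63 and LNK3 by 2.70 and 1.97. The LNK3 call in sap3 was lost without sap3 LL replicate 1 or sap3 HL replicate 1 (limma adjusted p at most 0.0595). The 3 that fell in WT were FKF1, the F-box partner of GI, by 1.09 (limma adjusted p = 0.0373), JMJD5, a histone demethylase gene tied to the clock, by 1.36 (limma adjusted p = 0.00434), and BOA, a homologue of LUX (limma adjusted p = 0.0161). BOA read 1.50 to 2.99 on all 16 arrays, within the range of the root and flower markers, so no size is given for it, and the HL signals of JMJD5 lay within that range too. ZTL, the F-box protein that targets TOC1, differed by 0.08 (limma adjusted p = 0.837). As labelled, with 12 arrays, limma called 0 of the 28 (5 in WT and 0 in sap3 at an unadjusted p under 0.05), and the WT and sap3 differences were 3.31 and 1.58 for ASG4, 1.41 and 0.67 for RVE8, 1.11 and 0.66 for RVE7, 1.20 and 0.63 for LNK1 and 1.88 and 0.55 for LNK3. The 12-array differences in WT were -0.75 for FKF1, -0.78 for JMJD5 and 0.08 for ZTL. Among the kept LL arrays, sap3 LL replicate 3 lay at least 0.5 outside the others for 5 of the 28 (2.89% of all probe sets): PRR3, LNK2, LNK4, FKF1 and JMJD5.

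Clock output genes also went both ways. Of 18, 6 rose and 3 fell in each genotype in the 9 arrays, and 8 passed in both. The share of all probe sets called was 9.13% in WT and 7.57% in sap3. SIG5, a plastid sigma factor that passes clock and light signals to the chloroplast, rose by 4.12 in WT (limma adjusted p = 4.83e-06) and by 3.96 in sap3 (limma adjusted p = 1.49e-05). CAT2, a morning-phased catalase gene, rose by 2.29 and 2.16, and COL1, a relative of CONSTANS, by 2.21 and 1.85. COL2, another such relative, rose by a measured 1.62 and 1.65, from LL signals of 2.04 to 2.70 at the level of the root and flower markers. PIF4, a growth-promoting bHLH gene that the evening complex represses, fell by 1.80 in WT (limma adjusted p = 5.78e-05) and by 1.62 in sap3 (limma adjusted p = 0.000248). COR28, a cold-regulated gene whose protein acts in the clock, fell by 2.67 in WT (limma adjusted p = 0.000918) and by 1.97 in sap3 (limma adjusted p = 0.011), and the sap3 call was lost without sap3 HL replicate 1 (limma adjusted p = 0.0956). The COR28 difference in sap3 was -1.23 without sap3 LL replicate 1 and -2.71 without sap3 LL replicate 3. FT and LHCB1.1 were not called, and their signals lay near the low end of the scale. COL1 and CDF5 each have another probe set, on the plus strand, and the brighter one, on the minus strand, was used. The 2 probe sets of a locus thus report on opposite strands and not on the same transcript. For CDF5 the 2 differed in direction in WT. The one used read 3.14, 3.48 and 3.38 in LL and 3.61 and 3.52 in the kept HL arrays. The other read 3.94, 3.55 and 3.37 in LL and 3.11 and 2.84 in the kept HL arrays. All these CDF5 values lie within the range of the root and flower markers, so both directions are uncertain. With 12 arrays limma called 0 of the 18 (1 in WT and 0 in sap3 at an unadjusted p under 0.05), and the WT and sap3 differences were 2.86 and 1.41 for SIG5, 1.53 and 0.69 for CAT2, 1.49 and 0.41 for COL1, 1.06 and 0.48 for COL2, -1.22 and -0.54 for PIF4 and -1.67 and -0.88 for COR28. Neither the 12 nor the 9 arrays gave a limma call among the 28 or the 18 between genotypes or in the interaction.

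**Figure D4:**
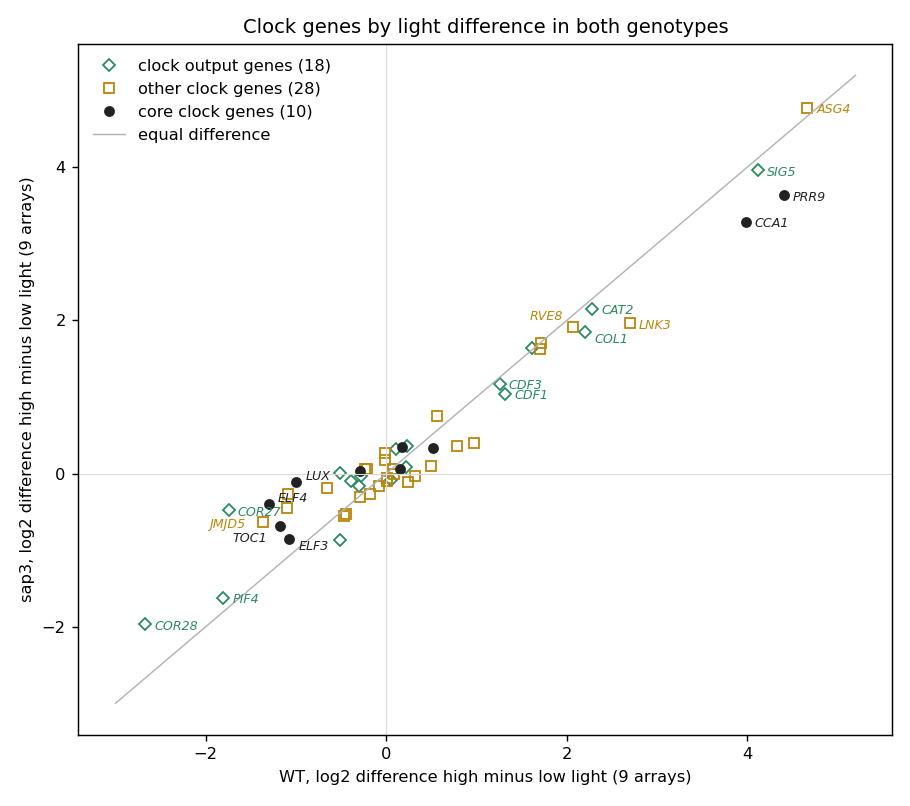
Log2 light difference (HL minus LL, 9 arrays) of the 10 core clock genes, 28 other clock genes and 18 clock output genes in WT (horizontal) and sap3 (vertical), with the line of equal differences. CCA1 (3.99 in WT and 3.29 in sap3) and PRR9 (4.40 and 3.64) lie below the line and ASG4 (4.67 and 4.78) just above it, and the differences between genotypes were not called by limma.

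For the 5 core genes that varied most over the 12 arrays, the probe sets outside the core list whose deviations from their own mean were most alike were found by root mean square difference. For CCA1 these were BETA-OHASE 2, a carotenoid hydroxylase gene (0.21), and SIG5 (0.32). For PRR9 they were GBSS1, the granule-bound starch synthase gene (0.32), and SIG5 (0.35). For TOC1 they were BBX13 (0.11) and AT1G14170 (0.13), for ELF3 TBL25 (0.11) and AT2G33170 (0.12), and for ELF4 AT1G07050 (0.19) and BBX8 (0.26). These values describe likeness over the 12 arrays, which fall into 2 light states.

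The authors' deposited table, which averages 4 arrays per group including 1 pool, gives a log2 ratio of HL over LL in its WT group of 2.77 for CCA1 (p = 0.0416) and 2.86 for PRR9 (p = 0.0642), from the authors' own test. No adjustment is named for these p-values. In its SAP3 knockout group the authors' deposited table gives 1.64 for CCA1 (p = 0.2) and 1.67 for PRR9 (p = 0.241). For the evening genes in WT the authors' deposited table gives -0.73 for ELF3 (p = 0.0467), -0.76 for TOC1 (p = 0.0525), -0.75 for ELF4 (p = 0.151) and -0.66 for LUX (p = 0.0638). In the authors' deposited table the smallest p-values of the core genes in WT were those of GI (0.25, p = 0.00956) and PRR5 (-0.27, p = 0.0202). LHY and PRR7 had 0.34 (p = 0.0613) and 0.03 (p = 0.783) in the authors' deposited table. An array whose light score opposed the label is in each of these averages except the one of WT in LL.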

How the data were processed

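Sense-strand cDNA from whole rosettes was hybridised to 16 Affymetrix arrays, 12 single replicates and 4 pools. The deposited log2 values were made by the authors with RMA in Affymetrix Expression Console, per the submitters' processing notes; the sources used here give no version. Of 28501 probe sets, 28403 of the main category were analysed (77 rescue and 21 ribosomal RNA sets left out). The p-values and the mean ratios of the authors' workbook, deposited without a named adjustment, were only copied, and 16 workbook signal columns were not used. Loci were taken from the workbook's annotation and checked in a RefSeq TAIR10.1 gene table (27002 probe sets with 1 locus).

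Group means were fitted with limma 3.58.1 (R 4.3.3; lmFit, eBayes, two-sided, Benjamini-Hochberg over all probe sets, called at an adjusted p under 0.05) on 12 arrays as labelled and on 9 arrays; the procedure was tested on simulated data. The rule for the members uses names only, but members, lists and tests were chosen with earlier results of these data known. From the other clock and the output genes, up to 6 per list with the largest mean light difference among those called in both genotypes were named; other genes named there were chosen after their values were seen. The number of arrays limits the precision. Alternatives were other priors, array weights, a replicate block, median centring, quantile normalisation, removal of dim probe sets, an adjusted p under 0.01 and leaving out each array. In the 9 arrays, leaving out an array of WT HL, sap3 LL or sap3 HL left 1 array in that group. That array is then assumed to vary like the others, so calls from such fits are uncertain. Deviations of same-numbered arrays from their group means correlated by -0.63 to 0.53 in the 12 arrays (4 of 18 above 0.1), where the 3 arrays of opposite light state enter, and by -0.041 to 0.081 in the 9 (0 of 10 above 0.1). The labels give no pairing, so numbers were not taken as pairs.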

Additional observations from a re-analysis of the deposited data

How the results depend on the processing

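In the 9 arrays, an adjusted p under 0.01 left 1350 probe sets and 3 core genes called with light in WT and 1106 probe sets in sap3. Between genotypes in LL, 5 probe sets were called under a mean-dependent prior, 1 after median centring and 2 without dim probe sets, and in HL 0 with a replicate block and 0 without dim probe sets. The replicate block also ended the WT call of ELF4 (limma adjusted p = 0.0743) and turned the sap3 PRR5 difference to -0.11; replicate numbers were not taken to pair the arrays. In the 12 arrays, the sap3 differences turned to 0.041 for PRR5 and 0.15 for GI under array weights and to 0.0028 for GI after quantile normalisation. The cause was not tested. Leaving out 1 array at a time gave, in the 9 arrays, 1231 (without WT HL replicate 1) to 2607 probe sets and 2 to 6 core genes called with light in WT, 1211 (without sap3 HL replicate 1) to 2029 probe sets and 2 to 4 core genes in sap3, and 0 to 1 probe sets in LL and 0 to 2 in HL between genotypes. In the 12 arrays it gave 0 to 1 probe sets for WT light and for the genotypes in HL, each 1 without WT HL replicate 2. The sap3 difference changed sign with 1 array left out for PRR7 (-0.06 to 0.17), PRR5 (-0.30 to 0.36), ELF4 (-0.95 to 0.15) and LUX (-0.60 to 0.39) in the 9 arrays. In the 12 it did so for LHY (-0.072 to 0.29), PRR7 (-0.0033 to 0.11), PRR5 (-0.20 to 0.14), GI (-0.19 to 0.19), LNK3 (-0.10 to 1.42), COL1 (-0.055 to 1.28) and COL2 (-0.058 to 1.22). Signals at the level of root and flower markers limit LHCB1.1, FT and BOA, the LL side of ASG4 and COL2 and the HL side of JMJD5. They also limit the WT values of both CDF5 probe sets, the lowest COL1 value and the lowest LHY values.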
